A study of Mus musculus with 5 samples.

Results

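The genes described here encode the nuclear subunits of the 5 complexes of oxidative phosphorylation, together with the assembly factors of complex I. They were taken by symbol from the RefSeq gene table of GRCm38.p6, as autosomal protein-coding genes beginning Nduf, Uqcr, Cox4, Cox5, Cox6, Cox7, Cox8 or Atp5, or named Sdha, Sdhb, Sdhc or Sdhd. This gave 93 of 20661 autosomal protein-coding genes. For each gene, H3K27ac peaks that overlapped the 1 kb on either side of either end of the gene were collected. The rule used no measured value.

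H3K27ac, acetylation of lysine 27 of histone H3, marks active promoters and enhancers. It was mapped by ChIPmentation, which adds sequencing adapters with the Tn5 transposase to chromatin held by the antibody. The cells came from mouse bone marrow and were sorted as CD45.2+ Lineage- Sca1+ Kit+, labelled HSC/MPP (haematopoietic stem cells and multipotent progenitors), with the genotype Mll3/4 deleted. All 4 H3K27ac libraries and the 1 input library carried this genotype, and none of them is a control genotype. The labels do not give the agent or Cre line behind the deletion, the age of the animals, or how many animals each library holds.

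The deposited data were 1 list of 22948 peaks for the 4 libraries together, so no value of a single library, no replicate error and no test between samples could be given. The total number of reads is unknown. A gene without a peak is one at which no peak passed the authors' calling, which does not show that the mark was absent. The sorted cell type was checked at the ends of marker genes. Peaks lay at Kit, Ptprc (CD45), Flt3, Cd48 and Slamf1, and none was called at Ly6a (Sca1) or Cd34. Of the lineage genes, none was called at Cd3e, Cd4, Cd8a, Ms4a1, Itgam, Ly6g or Klrb1c. None of 8 heart and skeletal muscle genes, 7 testis genes or 4 lung genes had one.

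Oxidative phosphorylation makes most of the ATP in many cell types. Electrons from NADH enter at complex I (NADH dehydrogenase) and those from succinate at complex II (succinate dehydrogenase). They pass by ubiquinone to complex III (the cytochrome bc complex), by cytochrome c to complex IV (cytochrome c oxidase), and then to oxygen. The proton gradient built by complexes I, III and IV drives complex V, the ATP synthase. Most subunits are encoded in the nucleus, and a few subunits of complex IV exist as isoforms made by separate genes, one used in most tissues and another mainly in muscle, lung or testis. Blood stem cells are known to rely comparatively little on respiration while quiescent.

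Of the 93 genes, 70 (75.3%; 95% Wilson interval 65.6% to 82.9%, for counting error only) had a peak at an end, beside 37.4% of all autosomal protein-coding genes. Complex II had a peak at 4 of 4 genes, complex III at 8 of 8, complex V at 15 of 17 and complex I at 37 of 47. Complex IV had one at 6 of 17 genes (35.3%), a share close to that of all genes. The complex IV count includes 7 isoforms restricted to certain tissues, none of which had a peak. Among the other 10 complex IV genes 6 had one. Differences between complexes were described and not tested, since genes are not replicates.

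The strength of each peak is given by the authors' signal value, read as the enrichment ratio of H3K27ac over background, and the strongest peak at a gene was used. Signal values at the 70 genes ran from 2.54 to 11.4, with a median of 5.57 and quartiles of 4.13 and 6.89. Over all 7731 autosomal genes with a peak the median was 4.74, with quartiles of 3.52 and 6.58. Of the 70, 8 lay below the lower quartile of all genes with a peak, 19 between it and the median, 20 between the median and the upper quartile, and 23 at or above the upper quartile. Medians by complex were 4.93 for complex I, 6.64 for II, 6.09 for III, 6.21 for IV and 5.57 for V. The values within each complex spread more widely than these medians.

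The count held up among stronger peaks. When −log10 q had to reach 5, a peak remained at 58 of the 93 genes, beside 24.9% of all genes. The 12 that lost it were Ndufa3, Ndufa5, Ndufa8, Ndufa9, Ndufa11, Ndufc1, Ndufs5, Ndufs8, Uqcr11, Uqcrc2, Atp5k and Atp5l. A signal value of at least 4 left 56 genes, beside 24.1%, and a limit of 0.05 on the q-value left 67, beside 35.6%. No complex IV gene with a peak was lost in these. The window mattered little: 0.5 kb gave 70 genes beside 35.0%, and 2.5 kb gave 74 beside 40.6%. A summit inside the window was found for 69 genes, beside 34.4%, and at least 50% of the peak lay inside it for 70, beside 33.2%.

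**Figure D1:**
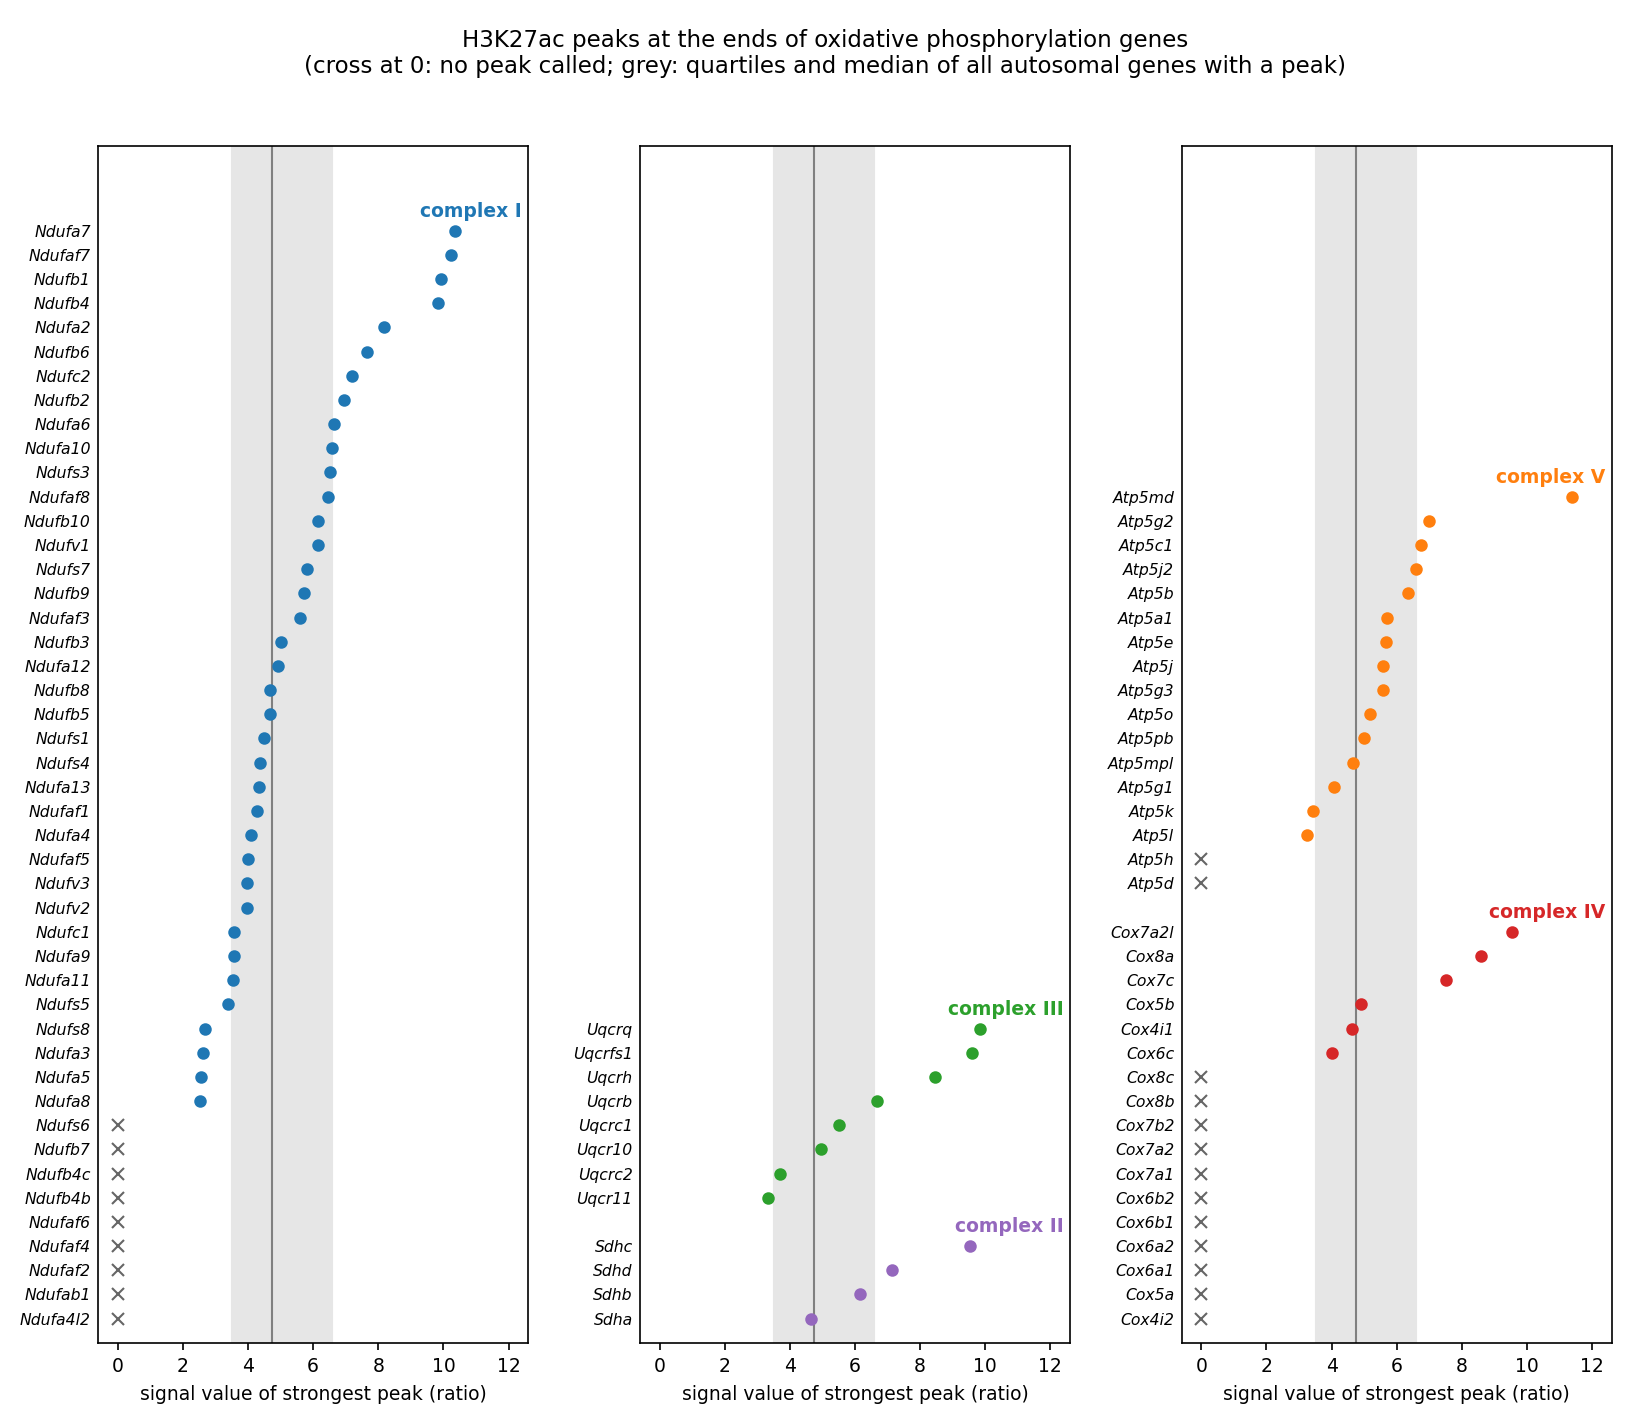
Signal value of the strongest H3K27ac peak (horizontal axis, ratio) at each gene, grouped by complex; a point is 1 gene, a cross at 0 is a gene with no peak called (92 of the 93 genes are drawn), and the grey band and line are the quartiles (3.52 and 6.58) and the median (4.74) of all autosomal genes with a peak. Genes of complexes II and III all carry a point, whereas 11 of the 17 complex IV genes carry a cross.

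The promoter sequences of 8 genes are shown as examples. Atp5md has the strongest peak of complex V and Ndufb4 a strong one of complex I. Sdhd and Atp5j are 2 genes whose peak is shared with a neighbour, and Ndufs7 is a core subunit. Cox8a and Cox8b are a general and a muscle isoform of the same subunit, and Cox6a1 is a general isoform without a peak. Each window runs from 250 bases before to 50 bases after a RefSeq start, in the direction of transcription, on GRCm38.p6. Atp5j has 2 starts and both windows are shown: the first holds none of the 4 motifs, and the second belongs to the start that lies 148 bp from that of Gabpa. Capitals mark matches, on either strand, to 4 motifs described further on (NRF1, ETS, YY1 and ERR).
Atp5md (chr19:47090598-47090897, minus strand): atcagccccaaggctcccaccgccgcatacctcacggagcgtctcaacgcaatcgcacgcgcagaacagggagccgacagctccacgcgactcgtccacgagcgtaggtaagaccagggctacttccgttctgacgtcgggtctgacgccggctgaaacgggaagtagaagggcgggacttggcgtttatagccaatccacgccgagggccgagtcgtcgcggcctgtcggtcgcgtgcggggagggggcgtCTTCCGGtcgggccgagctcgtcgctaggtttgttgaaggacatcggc
Ndufb4 (chr16:37654319-37654618, minus strand): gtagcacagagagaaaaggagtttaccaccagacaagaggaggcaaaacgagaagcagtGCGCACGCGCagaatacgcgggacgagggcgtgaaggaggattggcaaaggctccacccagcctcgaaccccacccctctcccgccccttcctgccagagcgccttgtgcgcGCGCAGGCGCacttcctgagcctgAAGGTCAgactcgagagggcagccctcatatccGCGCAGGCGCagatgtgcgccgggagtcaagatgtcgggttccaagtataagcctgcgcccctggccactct
Sdhd (chr9:50603800-50604099, minus strand): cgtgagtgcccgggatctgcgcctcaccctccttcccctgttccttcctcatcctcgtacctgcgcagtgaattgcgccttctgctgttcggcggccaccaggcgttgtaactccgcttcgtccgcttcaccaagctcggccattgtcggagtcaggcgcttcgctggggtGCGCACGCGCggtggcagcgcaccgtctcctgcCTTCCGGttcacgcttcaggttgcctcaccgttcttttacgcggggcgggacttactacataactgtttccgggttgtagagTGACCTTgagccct
Atp5j (chr16:84835576-84835875, minus strand): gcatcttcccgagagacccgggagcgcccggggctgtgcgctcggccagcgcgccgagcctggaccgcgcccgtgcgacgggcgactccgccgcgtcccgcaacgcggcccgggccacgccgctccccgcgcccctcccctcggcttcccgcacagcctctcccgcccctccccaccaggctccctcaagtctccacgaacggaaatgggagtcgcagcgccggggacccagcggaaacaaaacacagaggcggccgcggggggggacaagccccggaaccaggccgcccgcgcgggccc
Atp5j (chr16:84834927-84835226, minus strand): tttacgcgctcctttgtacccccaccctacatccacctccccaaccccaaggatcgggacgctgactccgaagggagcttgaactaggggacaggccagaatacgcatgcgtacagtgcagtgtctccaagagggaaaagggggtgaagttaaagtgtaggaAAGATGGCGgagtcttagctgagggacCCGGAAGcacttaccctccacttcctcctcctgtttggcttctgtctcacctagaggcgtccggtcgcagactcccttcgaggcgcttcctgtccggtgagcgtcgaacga
Ndufs7 (chr10:80249199-80249498, plus strand): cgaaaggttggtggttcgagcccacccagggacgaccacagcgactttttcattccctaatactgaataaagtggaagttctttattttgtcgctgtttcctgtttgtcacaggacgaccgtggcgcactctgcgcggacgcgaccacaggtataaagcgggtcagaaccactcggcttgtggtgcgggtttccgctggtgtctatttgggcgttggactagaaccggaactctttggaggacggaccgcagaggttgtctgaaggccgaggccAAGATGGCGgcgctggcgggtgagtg
Cox8a (chr19:7217567-7217866, minus strand): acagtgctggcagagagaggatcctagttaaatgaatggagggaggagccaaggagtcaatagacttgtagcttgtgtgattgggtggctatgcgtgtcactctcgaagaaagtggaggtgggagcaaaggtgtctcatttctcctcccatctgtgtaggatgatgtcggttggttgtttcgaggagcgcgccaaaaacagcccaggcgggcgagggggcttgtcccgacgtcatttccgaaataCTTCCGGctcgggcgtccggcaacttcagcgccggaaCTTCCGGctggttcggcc
Cox8b (chr7:140900397-140900696, minus strand): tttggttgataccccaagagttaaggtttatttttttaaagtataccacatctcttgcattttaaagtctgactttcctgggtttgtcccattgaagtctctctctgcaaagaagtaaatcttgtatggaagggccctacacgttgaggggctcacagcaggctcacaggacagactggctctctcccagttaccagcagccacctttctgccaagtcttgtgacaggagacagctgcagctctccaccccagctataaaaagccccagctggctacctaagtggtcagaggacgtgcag
Cox6a1 (chr5:115348909-115349208, minus strand): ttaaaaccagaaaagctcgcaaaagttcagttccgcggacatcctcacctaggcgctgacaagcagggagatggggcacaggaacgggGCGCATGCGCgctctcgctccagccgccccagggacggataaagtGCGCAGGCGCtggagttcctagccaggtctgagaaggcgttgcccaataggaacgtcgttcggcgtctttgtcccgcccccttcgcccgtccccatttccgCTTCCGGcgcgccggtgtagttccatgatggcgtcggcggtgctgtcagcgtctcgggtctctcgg

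Complex I takes electrons from NADH and is the largest of the complexes. Its core subunits carry the flavin and the iron-sulfur clusters. Ndufs3 had a signal value of 6.52, Ndufv1 (which binds NADH) 6.14 and Ndufs7 5.82. Ndufs1 had 4.50, Ndufv2 3.98 and Ndufs8 2.67. These core subunits therefore ranged from the lowest part of the signal range to just under the upper quartile of all genes with a peak.

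Accessory subunits of complex I surround the core and have roles in its assembly and stability. Among the 32 Nduf genes that are neither core subunits nor assembly factors, 26 had a peak, with a median signal value of 4.80. These 32 were taken by symbol and include Ndufa4, Ndufa4l2, Ndufb4b and Ndufb4c. The 3 strongest peaks of complex I were at Ndufa7 (10.3), at Ndufaf7 (10.2), a methyltransferase, and at Ndufb1 (9.92). Ndufb4 followed with 9.83. The 3 weakest were at Ndufa8 (2.54), Ndufa5 (2.57) and Ndufa3 (2.63). These 3 were the only genes of the 70 whose strongest peak had a q-value above 0.05, with −log10 q of 1.22 each. That is 4.29% of the 70, beside 4.86% of all genes with a peak.

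Ndufb4b and Ndufb4c carry the name of Ndufb4 but span only 471 bp and 485 bp, and neither had a peak. The nearest peak to them lay 18.4 kb and 47.3 kb away. The accessory subunits Ndufab1 (the mitochondrial acyl carrier protein), Ndufb7 and Ndufs6 also lacked a peak at an end, as did Ndufa4l2, treated with the isoforms below. Of the 8 Ndufaf assembly factors, 5 had a peak: Ndufaf7, Ndufaf8 (6.46), Ndufaf3 (5.60), Ndufaf1 (4.28) and Ndufaf5 (4.01). Ndufaf2, Ndufaf4 and Ndufaf6 had none.

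Complex II is also an enzyme of the citric acid cycle, and its 4 subunits are all nuclear. Its strongest peak was at Sdhc, a membrane anchor, with a signal value of 9.52. Sdhd, the other anchor, had 7.13. Sdhb, the iron-sulfur subunit, had 6.15, and Sdha, the flavoprotein that oxidizes succinate, had 4.65. The peak at Sdhc was 1959 bp wide and that at Sdha 609 bp. Both membrane anchors therefore had higher signal values than either catalytic subunit.

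In complex III the strongest peaks were at Uqcrq (9.83), a small subunit near the ubiquinone site, and at Uqcrfs1 (9.58), the Rieske iron-sulfur protein. Uqcrh, the hinge protein, had 8.45 and Uqcrb 6.67. The core proteins, which face the matrix, had lower values: 5.51 for Uqcrc1 and 3.70 for Uqcrc2. The small subunits Uqcr10 and Uqcr11 had 4.96 and 3.34. Uqcrh was the 1 gene of the 70 that lost its call when the summit itself had to lie in the window. Its peak was the widest of all, at 2878 bp, with the summit 1303 bp before the start, and it also lay within 1 kb of an end of Lrrc41.

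Among the general subunits of complex IV, Cox7a2l had a signal value of 9.55. It is related to Cox7a2 and joins complexes III and IV into supercomplexes. Cox8a had 8.60, Cox7c 7.53, Cox5b 4.90, Cox4i1 4.64 and Cox6c 4.01. Cox5a, Cox6a1, Cox6b1 and Cox7a2 had no peak at an end as the gene table gives it. For Cox5a and Cox7a2 this came from the gene models. Each model runs past the start given in the promoter table, by 3904 bp at Cox5a and 11569 bp at Cox7a2. A peak covered that start in both, with a signal value of 4.44 at Cox5a and 5.94 at Cox7a2. With starts counted as well as ends, complex IV had 8 of 17, and 72 of the 93 genes had a peak, beside 39.9% of all genes.

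Cox6a1 and Cox6b1 differed from this pair, because their starts coincide with the ends of their gene models. The nearest peak was 17.2 kb from Cox6a1, at Srsf9, and 22.8 kb from Cox6b1, at Rbm42. The promoter window of Cox6a1 printed above holds 32 CpG and matches to both NRF1 and ETS.

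The isoform comparison set 6 general genes beside 8 restricted ones. Of the general genes Cox4i1, Cox8a and Ndufa4 (signal value 4.08) had a peak at an end, and Cox7a2 had one at its start. None of the restricted genes did. These were Cox4i2 (lung), Cox6a2, Cox7a1 and Cox8b (heart and skeletal muscle), Cox6b2, Cox7b2 and Cox8c (testis) and Ndufa4l2 (a gene raised by hypoxia). Ndufa4 keeps the symbol of complex I, by which it is grouped here, and is now known as a subunit of complex IV. The list of 8 genes is short, and its difference from other genes was not tested. The nearest peak was 8.26 kb away at Cox7a1, 10.2 kb at Cox6b2, 16.1 kb at Cox8b, 21.1 kb at Cox8c, 22.6 kb at Cox4i2, 31.2 kb at Cox6a2, 32.9 kb at Ndufa4l2 and 612 kb at Cox7b2. No restricted gene gained a call in any of the alternatives tried. In each pair the restricted gene had no call. At Cox6a1 with Cox6a2 and at Cox6b1 with Cox6b2 the general gene had none either.

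The promoters of the pair Cox8a and Cox8b printed above differ in composition. The Cox8a window holds 19 CpG and 2 ETS matches, and the Cox8b window holds 2 CpG, no match to the 4 motifs, and a TATA match. Over the 4 restricted genes with a promoter sequence the CpG count ranged from 2 to 10, and over the 5 general genes with one from 14 to 32. The ranges did not overlap. The median over all 20084 promoter windows of autosomal protein-coding genes was 14, and over windows of genes without a peak it was 7.

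**Figure D2:**
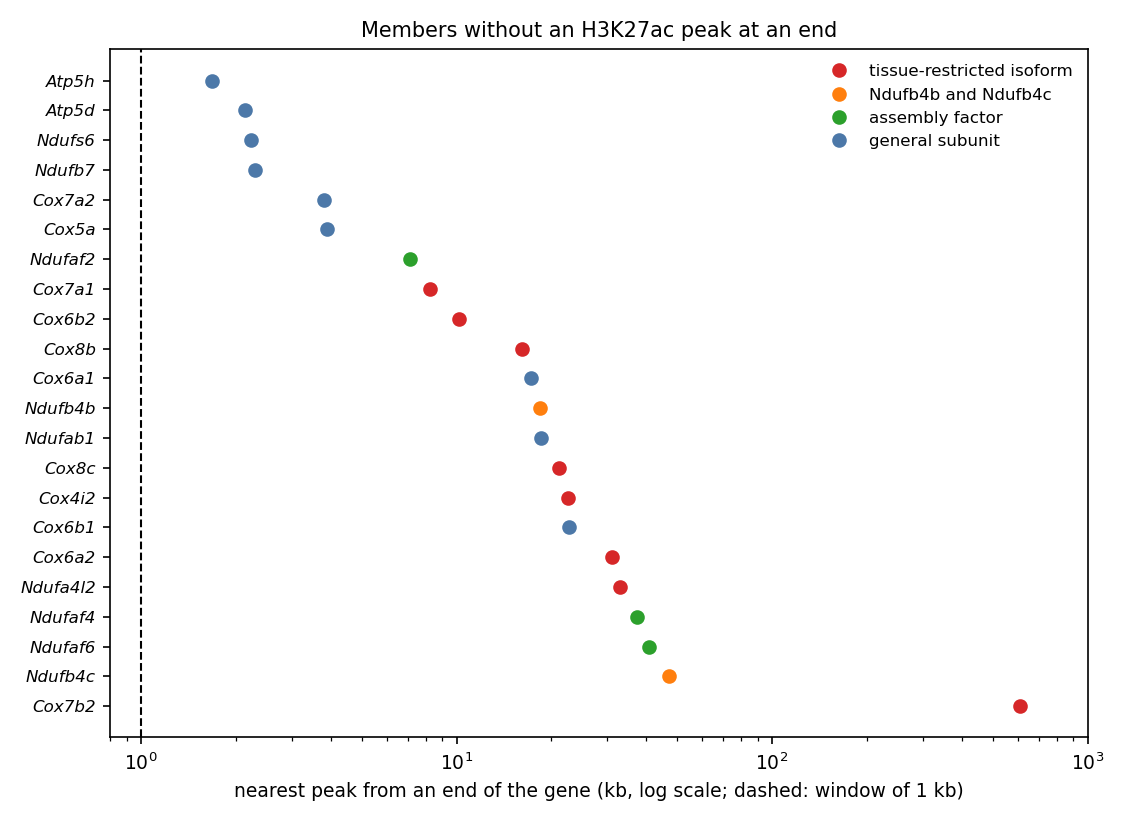
Distance from an end of the gene to the nearest H3K27ac peak (horizontal axis, kb, log scale) for 22 of the 23 genes without a peak at an end, coloured by kind of gene; the dashed line is the window of 1 kb. The 6 drawn genes closest to a peak, from 1.68 kb at Atp5h to 3.88 kb at Cox5a, include no restricted isoform, and the restricted isoforms lie from 8.26 kb on.

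Complex V consists of a catalytic head, a rotor and a stator. The strongest peak of all 93 genes was at Atp5md, a small membrane subunit that helps ATP synthase dimers form, with a signal value of 11.4, a −log10 q of 42.9 and a width of 2287 bp. It was higher than at 97.0% of all autosomal genes with a peak (ties counted by the midpoint). The next were Atp5g2 (6.98) and Atp5c1 (6.73), the latter encoding the gamma subunit of the rotor. Atp5b and Atp5a1, the catalytic beta and alpha subunits of the head, had 6.33 and 5.69. The 3 weakest were Atp5l (3.25), Atp5k (3.42) and Atp5g1 (4.07).

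The proton-carrying ring of complex V is built from 1 protein encoded by 3 genes, all general. Atp5g2 had 6.98, Atp5g3 5.57 and Atp5g1 4.07, so all 3 genes of this subunit carried a peak. Of the stator, Atp5j had 5.57, Atp5o 5.17 and Atp5pb 4.99, and Atp5h had no peak at an end. Atp5d, the delta subunit of the rotor, also lacked one, whereas Atp5e, the epsilon subunit of the rotor, had 5.66. Atp5h, Atp5d, Ndufs6 and Ndufb7 were the 4 genes gained with a window of 2.5 kb. The peaks gained were 1675 bp, 2140 bp, 2239 bp and 2293 bp from an end. From the nearest start these peaks lay 5903 bp, 5653 bp, 2239 bp and 7158 bp away. Only the peak of Ndufs6 was thus on the side of the start, and the others lay past the far end of the gene. Those at Atp5h and Ndufs6, with signal values of 9.73 and 8.94, also lay within 1 kb of an end of another gene, Mrpl58 and Mrpl36, both for proteins of the mitochondrial ribosome.

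The width of the strongest peak, which the rule did not use, had a median of 1130.5 bp over the 70 genes (interquartile range 762.75 to 1469.75 bp, range 320 to 2878 bp), beside 1120 bp over all genes with a peak (692 to 1798 bp). The 5 widest were at Uqcrh (2878 bp), Ndufb10 (2649 bp), Atp5md (2287 bp), Ndufs1 (2245 bp) and Ndufb1 (2134 bp). Of these, all shared their peak with another gene. At the ends of 15 of the 70 genes there were 2 or more peaks, beside 24.3% of all genes with a peak.

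Where a start was known, the summit of the strongest peak was placed relative to it. This was possible for 59 of the 70 genes, and in 57 the strongest peak overlapped the 1 kb around a start. At Ndufb6 and Ndufb10 the strongest peak (7.65 and 6.15) instead lay at the other end, beside Topors and Smim27 and beside Rps2 and Rnf151. Their own starts had weaker peaks, with signal values of 5.02 and 2.84. In the 57 genes the median summit lay 310 bp after the start (interquartile range 173 to 370 bp), beside 263 bp (-262 to 444 bp) over 5721 autosomal genes. The summit lay after the start in 47 of the 57 (82.5%), beside 68.0% of all genes. In 20 genes (35.1%) it lay from 300 to 400 bp after the start, beside 15.1% of all genes with a summit within 2 kb. The summits of these genes were placed more narrowly than all genes, a difference that was not tested.

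**Figure D3:**
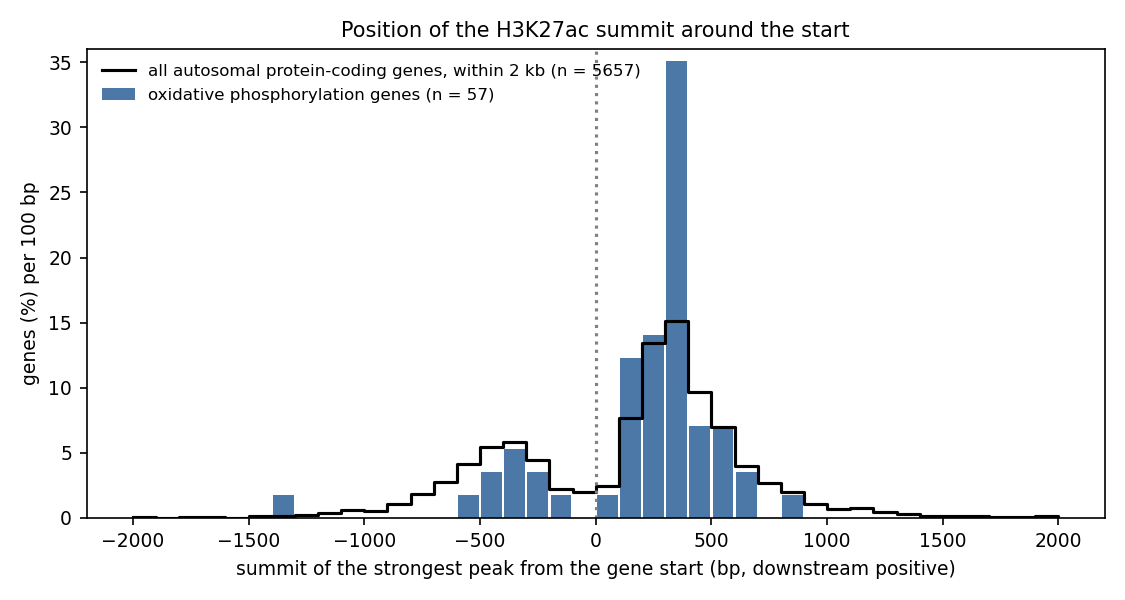
Summit of the strongest peak relative to the gene start (horizontal axis, bp, downstream positive, bins of 100 bp) as a percentage of the 57 oxidative phosphorylation genes (bars) and of 5657 autosomal protein-coding genes with a summit within 2 kb of a start (line). The bars are highest from 300 to 400 bp after the start, where they hold 35.1% of the genes and the line 15.1%.

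Many of these genes lie beside another gene, and then a peak cannot be given to either. The strongest peak also lay within 1 kb of an end of another protein-coding gene, and is called shared here, at 35 of the 70 genes (50%), beside 31.8% of all genes with a peak. In complex I these were Ndufa2, Ndufa4, Ndufa5, Ndufa7, Ndufa8, Ndufa11, Ndufa13, Ndufaf3, Ndufaf5, Ndufaf7, Ndufaf8, Ndufb1, Ndufb3, Ndufb5, Ndufb6, Ndufb9, Ndufb10, Ndufs1, Ndufs3, Ndufs8 and Ndufv3. In complex II they were Sdha, Sdhc and Sdhd, in complex III Uqcr10, Uqcrb, Uqcrh and Uqcrq, and in complex IV only Cox4i1. In complex V they were Atp5a1, Atp5c1, Atp5e, Atp5j, Atp5md and Atp5pb.

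Some of the neighbours also act in mitochondria or in translation. Ndufb5 shared its peak with Mrpl47 of the mitochondrial ribosome, Sdhd with Timm8b, a chaperone of protein import, and Uqcrb with Mterf3, which acts on mitochondrial transcription. Ndufa7 shared its peak with Rps28 and Ndufb10 with Rps2, both of the cytosolic ribosome, and Ndufs1 with Eef1b2, an elongation factor. Atp5j shared its peak, 1856 bp wide with a signal value of 5.57, with Gabpa, an ETS factor known as a regulator of respiratory genes. These neighbours were picked after their names were seen.

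Head-to-head pairs, in which another protein-coding gene starts on the opposite strand within 1 kb before the start, made up 22 of 75 genes with a promoter sequence (29.3%), beside 8.77% of all such genes. The starts were 10 bp apart at Ndufa7 and Rps28, 52 bp at Sdhd and Timm8b, 148 bp at Atp5j and Gabpa, and 308 bp at Ndufb5 and Mrpl47. Of the 22 head-to-head genes 20 had a peak, beside 79.9% of all head-to-head genes. Of the other 53 genes 39 had one (73.6%), beside 34.5%. The signal values of the 2 kinds were similar, with medians of 5.003 and 5.60. Of the 10 genes whose summit lay before the start, 6 were head-to-head genes, beside 588 of 1830 over all genes. Among the 6 were Sdhd (-360 bp), Atp5j (-265 bp from the nearer of its starts, but after the other start) and Ndufb5 (-515 bp).

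A promoter sequence was found for 75 of the 93 genes, in 80 windows of 300 bases, since some genes have more than 1 start. Of the 75 genes 59 had a peak at an end, beside 38.4% of all genes with a promoter sequence, and 61 had one within 1 kb of a start, beside 39.3%. CpG content was similar to that of all genes with a peak. The windows had a median of 20 CpG, beside 22 for windows of all genes with a peak and 7 for those of genes without. In the middle of the CpG range of these genes, from 15 to 25.5 CpG, 35 of 41 had a peak (85.4%), beside 56.8% of all genes in that range.

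The windows were searched on both strands for 7 motifs. The NRF1 motif was GCGCA and GCGC with any 1 base between them, and CCGGAAG was searched for ETS factors such as Gabpa. The others were AAGATGGCG for YY1, AAGGTCA for the oestrogen-related receptors (ERR), GGGCGG for SP factors, CCAAT for NF-Y and TATAAA for the TATA box. A match is only a run of letters and was not read as binding. In the 80 windows, matches of different motifs overlapped once, an ETS and an SP match at Ndufs3.

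NRF1, a transcription factor named for its role at respiratory genes, had a match in 20 of 80 windows (25%), beside 6.55% of all 20084 windows and 11.3% of those of genes with a peak. The 19 genes were spread over all 5 complexes: Ndufa5, Ndufa6, Ndufa8, Ndufa11, Ndufaf4, Ndufaf5, Ndufb4, Ndufs5 and Ndufs6, Sdha and Sdhd, Uqcrc1, Cox6a1, and Atp5c1, Atp5g2, Atp5g3, Atp5h, Atp5k and Atp5o. Ndufb4 and Sdha each held 3 matches. Of the windows of genes without a peak 4 of 17 held a match, and of those with one 16 of 63.

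ETS matches lay in 19 windows (23.8%), beside 11.9% of all windows and 20.6% of those of genes with a peak. Atp5l, Cox8a and Ndufs3 held 2 each, and Atp5md held 1, its first base 2 bases after the start (the start is counted as 0). ERR matches lay in 8 windows (10%), beside 4.03% of all windows and 2.96% of those of genes with a peak. All 8 belonged to genes with a peak: Atp5e, Atp5g3, Atp5k, Atp5l, Ndufb2, Ndufb4, Ndufs5 and Sdhd. The YY1 letters lay in 8 windows (10%), beside 1.83% of all windows and 3.60% of those of genes with a peak.

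The YY1 matches had a common place. All 8 were on the transcribed direction of the gene, and 7 began after the start: at Ndufaf8 (10 bases), Ndufc1 (22), Atp5j2 (23), Ndufs7 (24), Ndufa9 (29), Ndufs6 (33) and Ndufs4 (35). The eighth, at Atp5j, began 88 bases before the start. Over all windows 50% of 380 matches were after the start in this direction. SP matches lay in 43.8% of the windows, beside 47.0% of all windows and 63.7% of those of genes with a peak. NF-Y matches lay in 41.3%, beside 38.1% and 38.0%. TATA matches lay in 11.3%, beside 12.7% and 7.14%.

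At least 1 of the NRF1, ETS, YY1 and ERR motifs was found in 41 of the 80 windows (51.3%), beside 21.8% of all windows and 33.8% of those of genes with a peak. In 12 windows (15%) 2 or more of them were found, beside 2.34% and 4.43%. These were Atp5e, Atp5g3, Atp5h, Atp5j, Atp5k, Atp5l, Cox6a1, Ndufaf8, Ndufb4, Ndufs5, Ndufs6 and Sdhd. Of these, Atp5h, Cox6a1 and Ndufs6 had no peak at an end, so these letters alone did not separate the genes with a peak from those without. The printed window of Sdhd holds NRF1, ETS and ERR matches, and that of Ndufb4 holds NRF1 and ERR matches.

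**Figure D4:**
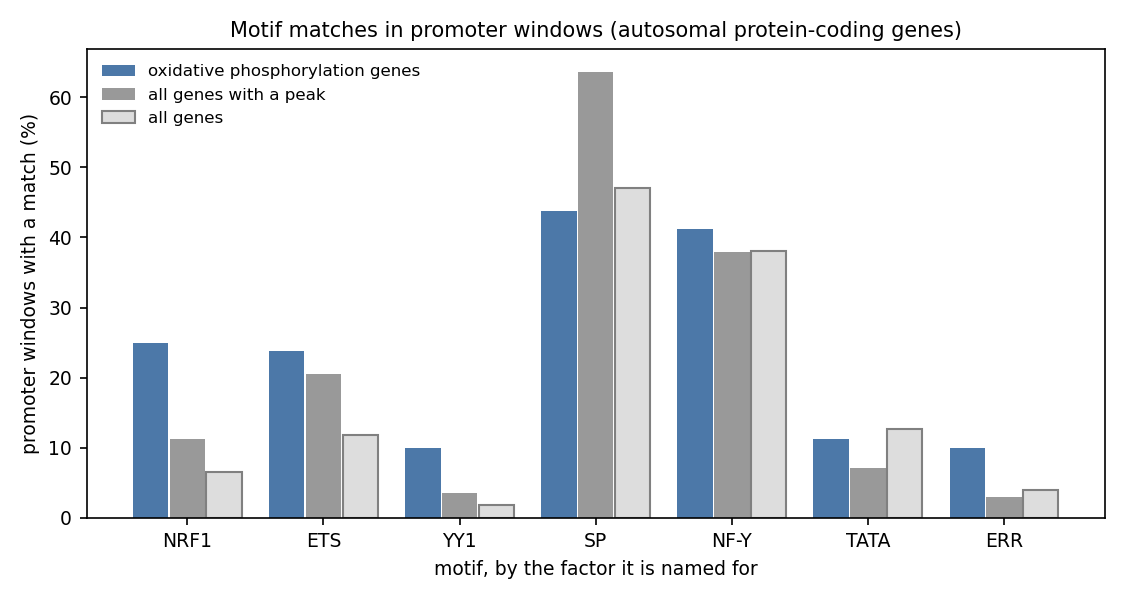
Share of promoter windows with a match to each motif (vertical axis, %) for the oxidative phosphorylation genes (80 windows), all autosomal protein-coding genes with a peak (7861 windows) and all such genes (20084 windows). The bars of the oxidative phosphorylation genes are above both others for NRF1, ETS, YY1, NF-Y and ERR, and below both for SP.

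Distal peaks, with a summit over 1 kb from every protein-coding gene end, were counted within 50 kb of each gene. At least 1 was found for 51 of the 93 genes (54.8%), beside 45.9% of all genes. Within 100 kb it was 66 genes, beside 61.3%, within 20 kb 28 genes, beside 28.5%, and counting only peaks whose −log10 q reached 5 there were 31 genes, beside 24.0%. The median number within 50 kb was 1 and the highest number 8, at Ndufb9 and Atp5d. Complex I had 30 of 47 genes with a distal peak and complex III 3 of 8.

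Other genes of respiration were taken from fixed lists. Of 70 such genes 55 had a peak at an end (78.6%), beside 37.4% of all genes. Only 32 kept one when −log10 q had to reach 5, beside 24.9%, and 31 at a signal value of 4 or more, beside 24.1%. The lists of assembly genes outside the rule, which also hold Atpif1, the inhibitor of the ATP synthase, had one at 33 of 40. Those without were Sco1, Coa3, Coa6, Nubpl, Uqcc2, Ttc19 and Atpaf2. All 4 complex II assembly factors (Sdhaf1 to Sdhaf4) had one, and complex IV assembly had it at 17 of 20. Of the electron carriers, Cycs, which encodes cytochrome c, had a signal value of 8.26, Cyc1, the cytochrome subunit of complex III, had 2.83, and Cyct, the testis form of cytochrome c, had no peak. Citric acid cycle genes had a peak at 12 of 13, with none at Idh2.

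Of 14 regulators of respiratory genes 8 had a peak (57.1%), beside 37.4% of all genes. Nrf1 had a signal value of 10.8, Esrra (an oestrogen-related receptor) 7.51, Tfb1m 6.67, Yy1 6.49, Gabpa 5.57, Tfb2m 3.54, Tfam (which packages mitochondrial DNA) 3.30 and Twnk (the mitochondrial helicase) 2.78. None was called at the coactivators Ppargc1a, Ppargc1b and Pprc1, at Gabpb1, the partner of Gabpa, or at Polrmt and Polg, the mitochondrial polymerases. Among these 8 were the genes of 4 factors whose motifs were searched (Nrf1, Gabpa, Yy1 and Esrra). The peak at Gabpa is the one shared with Atp5j and cannot be given to either gene. No link between these peaks and the motif matches was tested.

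The most similar gene families gave shares of the same order. Mitochondrial ribosomal protein genes had a peak at 53 of 78 (67.9%), cytosolic ribosomal protein genes at 79 of 95 (83.2%) and proteasome subunit genes at 33 of 39 (84.6%). Their median signal values were 4.44, 5.998 and 4.86, beside 5.57 for the oxidative phosphorylation genes. Without the 8 restricted isoforms, Ndufb4b and Ndufb4c, a trimming chosen after the values were seen, 70 of 83 oxidative phosphorylation genes (84.3%) had a peak. None of these differences was tested.

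**Figure D5:**
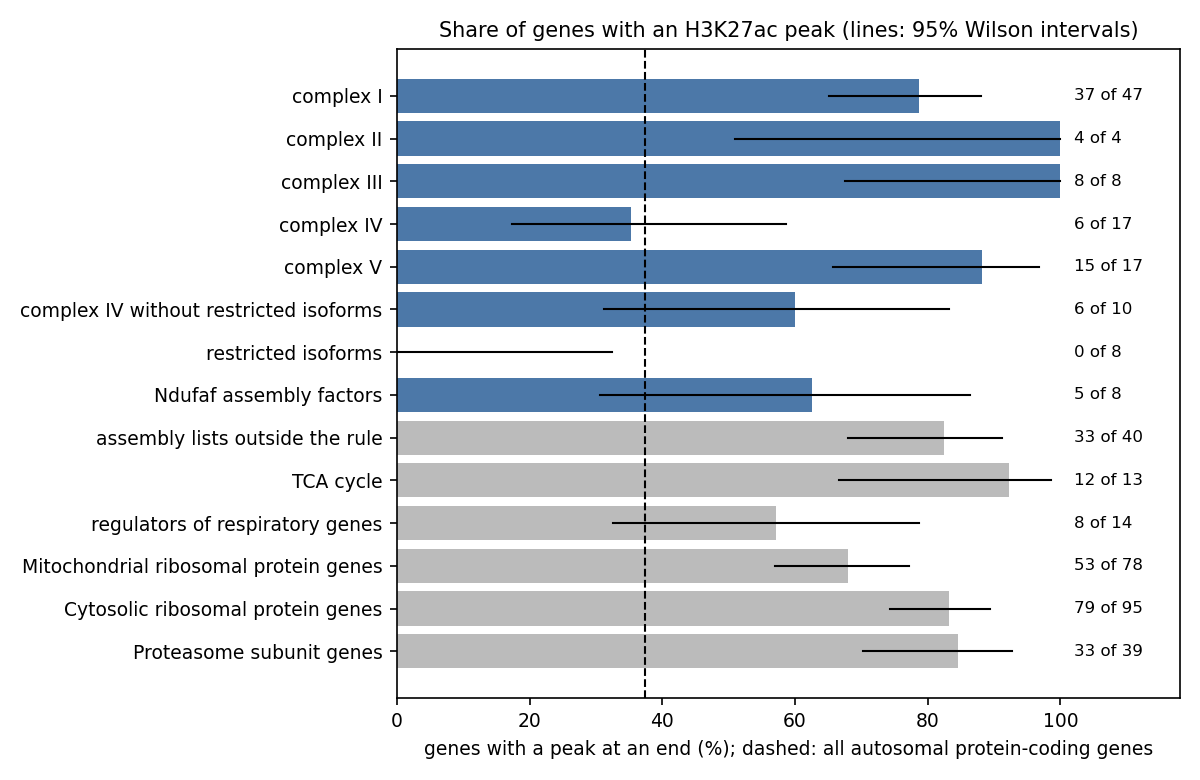
Share of genes with an H3K27ac peak at an end (horizontal axis, %) for the complexes and isoforms (blue) and for other gene lists (grey), with the count at the right and the 95% Wilson interval as a line; the dashed line is the 37.4% of all autosomal protein-coding genes. Complex IV lies at 35.3% with its restricted isoforms and at 60% without them, and the restricted isoforms are at 0 of 8.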

How the data were processed

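H3K27ac was measured in 4 libraries and 1 input library of Mll3/4-deleted bone marrow cells. The submitters' processing notes name BWA, MACS2 and mm10, without versions, roles or parameters. The authors deposited 1 peak list for all libraries. Its columns, without a header, hold a deposited score of at most 1000 (not used), the authors' signal value, read as an enrichment ratio, and the authors' −log10 q (of a q-value). Depth is unknown.

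Genes, starts and promoter sequences came from RefSeq tables of GRCm38.p6, the assembly behind mm10. Positions are 1-based. A gene had a peak if 1 bp or more of one lay within 1 kb of an end. The strongest peak was the one with the highest signal value. Sdh was read as Sdha to Sdhd. A member's complex was taken from its symbol. Overlaps were computed in Python 3.11.15 with pandas 2.3.3 and tested on simulated data. Wilson intervals are at 95%.

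Named genes were the isoforms, members without a peak, the 3 highest and 3 lowest of each complex, the 5 widest peaks, members that share a peak, the core complex I, II and III genes, and regulators. The members and lists were chosen with earlier results of these data known. Alternatives were stricter peaks, other windows and overlaps, starts, and other member sets. Results for a few genes are not reported here.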

Additional observations from a re-analysis of the deposited data

How the results depend on the processing

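The count of genes with a peak kept within 1.5 times of 70 under every other peak threshold, window and overlap, from 56 (signal value of at least 4; 24.1% of all genes) to 74 (window of 2.5 kb). At starts alone it was 61 of 75. Counts by complex, for isoforms and for assembly factors also stayed within that factor, as did the median signal value and width. Of 115 recomputed values 12 moved by more, 7 of them motif counts in a window of only 100 bases. Limited to a promoter CpG count in the middle range, 41 genes were left, 35 with a peak. Requiring a −log10 q of 5 or more left 31 of 51 genes with a distal peak and 32 of 55 other respiratory genes. A reach of 20 kb left 28 genes with a distal peak, and a signal value of 4 or more left 31 other respiratory genes. Fewer peaks or a shorter reach can only lower such counts, and the sizes of these falls were not tested. Counting starts beside ends, the set without restricted isoforms and the CpG range were chosen after seeing the data. No library could be left out, since the list gives none of their values. No paired analysis was possible because no column belongs to a single replicate.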

Other observations

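The X chromosome holds 3 further subunit genes that the autosomal rule leaves out. Cox7b, the general partner of the testis isoform Cox7b2, had a peak with a signal value of 3.95. Ndufa1 and Ndufb11, accessory subunits of complex I, had no peak at an end. With these, 71 of 96 genes had a peak.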
